A study of Homo sapiens and Mus musculus with 74 samples.

Results

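The small ribosomal subunit genes described here are 28 mouse genes that encode proteins of the subunit which reads the mRNA, taken from 22484 protein-coding genes of the mouse count table. They were chosen by name (Rpsa, Rps2, Rps3, Rps3a1, Rps4x, Rps6, Rps7, Rps9, Rps10, Rps12, Rps13, Rps14, Rps15, Rps15a, Rps16, Rps18, Rps19, Rps20, Rps21, Rps23, Rps24, Rps25, Rps26, Rps27, Rps27a, Rps28, Rps29 and Fau), and each is represented by its transcript with the longest annotated protein. The study compared wild-type (WT) mice with mice that lack Rpl41, a very small protein named for the large subunit but now counted with the small one (Rpl41 KO, or KO). In KO animals the whole Rpl41 coding sequence was removed with CRISPR–Cas9 in C57BL/6J zygotes, so the gene is missing from every cell of the animal and not only from the organs measured. Whole kidney and whole brain of 10-week-old males were used, and WT and KO animals share strain, age and sex. Each genotype had 3 libraries of RNA-seq (mRNA level) and 3 of Ribo-seq (ribosome-protected footprints of 17 to 34 nucleotides) per organ. Kidney also had 3 libraries per genotype of disome-seq, which sequences the fragments of 50 to 80 nucleotides that a pair of stacked ribosomes protects. Whole organs hold many cell types, so fewer cells of a type and less RNA per cell cannot be told apart.

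The small subunit binds mRNA, scans for the start codon and holds the decoding centre, where codon and tRNA are matched. Its proteins are grouped here into the head, which carries the tRNA-binding face, the platform around the mRNA exit, and the body, which includes the decoding centre and the mRNA entry channel. Mammalian ribosomal protein mRNAs are abundant in nearly every tissue, and many begin with a 5′ terminal oligopyrimidine (TOP) tract, through which growth signalling by mTOR controls how well they are translated. The genes have also left many processed pseudogenes in mammalian genomes, so short reads from them often match several places. Rpl41 itself lies at the interface between the subunits.

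RNA-seq totals were 44998381 to 55077048 counts for kidney and 84433838 to 123745890 for brain. Ribo-seq totals were lower, at 11036643 to 42452425 and 9498663 to 35881929, and disome totals lower still, at 1187636 to 3018963. Rpl41 itself had 3695 to 7502 reads in WT kidney RNA-seq and 3 to 8 in that of KO, and 8981 to 12199 against 6 to 12 in brain RNA-seq. All 10 kidney markers checked were higher in kidney and all 10 brain markers were higher in brain, in RNA and in footprints. The summed level of 10 pancreas markers was highest in library 1 of the WT group in Ribo-seq of both organs, with 348, 14.1 and 43.9 CPM in WT and 7.43, 9.82 and 7.34 CPM in KO kidney, and 138, 2.95 and 1.41 CPM in WT and 3.54, 1.09 and 1.06 CPM in KO brain libraries. Levels below are in CPM, the count divided by the library's total and brought to a common scale, which compares libraries but not genes of different length.

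Of the 28 genes, 12 (42.9%) had an annotated transcript that starts with C and holds only C or T through base 5, the letters searched for a TOP tract on the transcribed strand. Over all 21853 protein-coding genes the share was 5.13%. Some of the tracts are printed here to show how they vary in length and letters. Each line gives 5 bases before an annotated start and 20 bases from it, on GRCm38, with the tract in capitals, from the transcript of the gene with the longest tract.
Rps24 (chr14:24490713-24490737, plus strand): cggtcCTCTTTTCCTCCTCTCCagc
Rps2 (chr17:24720105-24720129, plus strand): tccctCTTCTTCTTCTTCgggagaa
Rps3 (chr7:99483632-99483656, minus strand): cacttCCTTTCCTTTCagcggcgcg
Rps25 (chr9:44407690-44407714, plus strand): ggcttCCTTTTTTTCCgacatctta
Rps10 (chr17:27635225-27635249, minus strand): cgcccCTTCCTTTCCagcctccgcc
Fau (chr19:6057946-6057970, plus strand): tcttcCTCTTTCTTgactccatctt
Rps27 (chr3:90213629-90213653, minus strand): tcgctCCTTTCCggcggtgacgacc
Rps27a (chr11:29547841-29547865, minus strand): cttcctttccgatccgccatcgtgg
The tract of Rps24 ran for 17 bases, that of Rps2 for 13, those of Rps3 and Rps25 for 11, and that of Rps27 for 7. Rps27a is shown as a gene without a match. Its pyrimidine run lies across the annotated start rather than after it, so the call depends on where the annotation places the first base, and a gene with more annotated transcripts had more chances to match.

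The coding sequences of these genes are also present elsewhere in the mouse genome, which bears on how reads can be counted. In 9 of the genes (Rps6, Rps13, Rps16, Rps23, Rps27, Rps27a, Rps28, Rps29 and Fau) every 100-base stretch of the coding sequence was found unchanged at another place in the GRCm38 assembly. None of the 100-base stretches of Rps3 or Rps21 was. The other 17 genes lay between, from 12.2% of stretches in Rps15 to 91.9% in Rps7. The lines below give 28-base stretches, about the length of a footprint, for genes whose levels are described further on. The first 3 are widely shared stretches within 1 coding exon of their gene, and the last 2 occur nowhere else.
Rps6 (chr4:86854788-86854815, minus strand): ttggccaagagaatgaaggaagccaaag
Rps23 (chr13:90923661-90923688, plus strand): tacaagaaagcccacttgggcacagccc
Rps27 (chr3:90213220-90213247, minus strand): aaaaagcgcctggtgcagagccccaatt
Rps3 (chr7:99483594-99483621, minus strand): atggcggtgcagatttccaagaagagga
Rps21 (chr2:180257641-180257668, plus strand): acgacgccggcgagtttgtggacctgta
The stretch of Rps6 was found at 22 other places, that of Rps23 at 12 and that of Rps27 at 9. The stretches shown for Rps27, Rps23, Rps6, Rps3 and Rps21 all lie in single coding exons.

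Footprints on the small subunit genes were dense. In WT kidney the median gene of the 28 carried 70.3 footprint CPM per kilobase of coding sequence, a scale that does compare genes. The median of 11773 protein-coding genes with at least 10 reads in every kidney Ribo-seq library was 6.04. In WT brain the figures were 59.5 and 5.75. The highest density in WT kidney was that of Rps29, a zinc-binding protein of the head, with a median of 164 (134 to 195) over the 3 libraries. Rps21, a small protein of the body, followed with 155 (121 to 191), and Fau, made as a fusion with a ubiquitin-like protein, with 108 (90.1 to 123). The ranges of neighbours in this order overlapped, so the order at the top is not resolved by 3 libraries.

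At the other end stood Rpsa, a body protein also known as the laminin receptor precursor, with 22.0 (16.6 to 23.3). Rps12, a protein of the beak of the head, had 5.31 (3.79 to 10.8), and Rps2, which lines the mRNA entry channel, had 3.17 (1.86 to 3.88). Rps12 and Rps2 therefore stood apart from the other 26 genes, whose medians spanned 22.0 to 164, a 7.42-fold range. A 28-base stretch of Rps2 recurs at up to 56 other places and of Rps12 at up to 25, against 20 in Rpsa and 2 in Rps3. Across the 28 genes, density and this largest number of places had a Spearman correlation of -0.74 in WT kidney and -0.60 in WT brain. The genes share libraries, so this describes them and is no test, and what part the copies have in the densities was not tested. The longest annotated Rps19 protein (212 amino acids) also includes a stretch that recurs at 13135 places, and without Rps19 the kidney correlation was -0.72.

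The order of the genes by density was nearly the same in both genotypes. Spearman's rho between WT and KO medians was 0.976 in kidney and 0.963 in brain, and 0.893 between the organs of WT animals, each over 28 genes. Rps29 had 138 (118 to 141) in KO kidney and Rps21 124 (101 to 139). In the brain Rps21 ranked first in both genotypes, with 147 (147 to 188) in WT and 122 (119 to 144) in KO. Rps12 and Rps2 were the lowest in every one of these 4 groups.

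**Figure D1:**
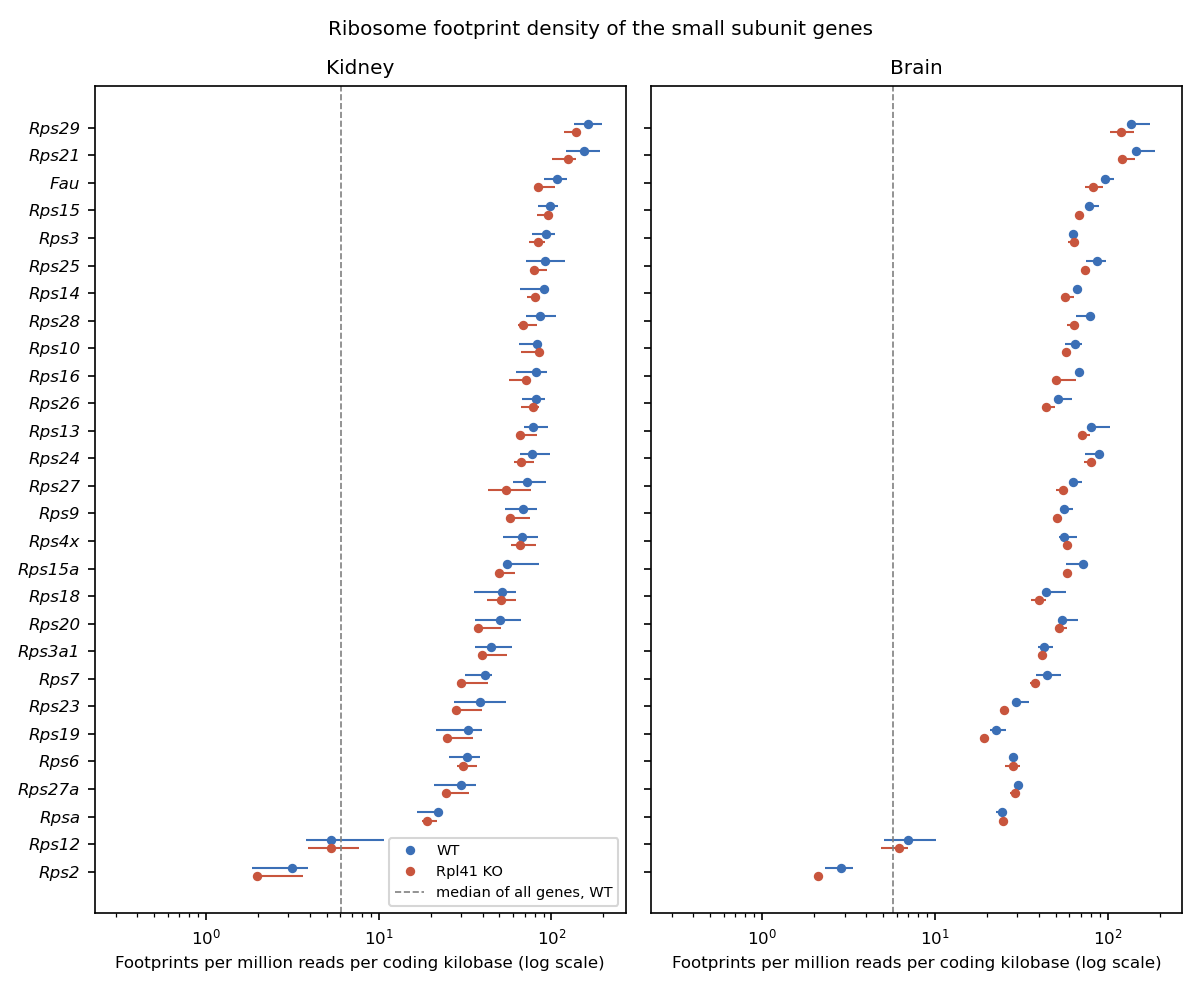
Ribosome footprint density of each small subunit gene in kidney (left) and brain (right), on a log axis of footprint CPM per coding kilobase. Points are medians and lines the range of 3 libraries for WT and Rpl41 KO. The dashed line is the WT median of protein-coding genes with at least 10 reads in every Ribo-seq library of the organ. Apart from Rps12 and Rps2, the WT kidney medians lie between 22.0 and 164, above the dashed line at 6.04.

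Small subunit mRNAs were compared between KO and WT kidney. No gene of the 27 tested passed the threshold (adjusted p under 0.05, from the quasi-likelihood test of edgeR, adjusted by Benjamini-Hochberg across every transcript tested), and of 13903 coding genes 0% passed it upward and 0.00719% downward. The log2 fold changes (KO over WT) ran from -0.13 to 1.38 with a median of 0.70, and 25 of 27 were positive, where 61.6% of all genes were positive and 38.4% negative. The median of all coding genes was 0.10, so that the small subunit genes lay 0.59 above it. At an unadjusted p under 0.05, 14 genes were higher and 0 lower in KO, against 11% and 3.11% of all genes. In 7 genes (Rps12, Rps14, Rps18, Rps23, Rps25, Rps26 and Rps27a) all KO values were higher than all WT values once scaled by TMM (edgeR's library scaling), which held for 14.2% of all genes, and in 0 were they all lower (6.67% of all genes).

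Among the head proteins, the largest fold change belonged to Rps29 (chr12:69157722-69159186, minus strand). Its transcript had 14, 24 and 23 reads in WT and 25, 46 and 66 in KO libraries, or 0.289, 0.468 and 0.511 CPM in WT libraries 1 to 3 and 0.454, 0.988 and 1.46 CPM in KO libraries 1 to 3, so KO library 1 lay inside the WT range. Rps12 (chr10:23785198-23787217, minus strand) had 5.88, 6.44 and 9.49 CPM in WT libraries 1 to 3 and 9.19, 15.0 and 20.0 CPM in KO libraries 1 to 3, and KO library 1 lay close to WT library 3. The log2 fold changes were 1.38 (SE 0.56, adjusted p = 0.292) for Rps29 and 1.21 (SE 0.33, adjusted p = 0.292) for Rps12. Rps10 and Rps20, on which the ligase Znf598 places ubiquitin when ribosomes collide, had 0.97 (SE 0.42) and 0.85 (SE 0.35). Rps3, at the mRNA entry and also ubiquitinated on stalled ribosomes, was the head protein with the smallest value, 0.18 (SE 0.15, adjusted p = 0.493). It had 147, 159.9 and 129 CPM in WT libraries 1 to 3 and 149.8, 149 and 142 CPM in KO libraries 1 to 3, and the groups overlapped. Rps15, whose tail reaches the decoding centre, had 0.80 (SE 0.30), Rps25, needed by some viral internal ribosome entry sites, 0.42 (SE 0.15), and Rps27a, made as a fusion with ubiquitin, 0.42 (SE 0.16).

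Of the platform proteins, Rps14, which lies beside the mRNA exit and is the gene lost in the 5q- syndrome, had 94.4, 120.3 and 66.5 CPM in WT libraries 1 to 3 and 120.2, 222 and 173 CPM in KO libraries 1 to 3. KO library 1 was level with WT library 2, and libraries 2 and 3 of the KO group were higher than every WT library. Its log2 fold change was 1.04 (SE 0.31, adjusted p = 0.292). Rps7 and Rps13 were the only genes with negative values, -0.13 (SE 0.30, adjusted p = 0.818) and -0.09 (SE 0.23, adjusted p = 0.842). Rps27, a zinc-finger protein with the paralog Rps27l, had 10, 16 and 4 reads in the WT and 7, 5 and 13 reads in the KO libraries, and was left out of this test for its low counts. In the body, Rps23, which forms part of the decoding centre, had 1.24, 1.17 and 0.867 CPM in WT libraries 1 to 3 and 1.53, 2.43 and 1.66 CPM in KO libraries 1 to 3 from 60, 60 and 39 and 84, 113 and 75 reads, and its log2 fold change was 0.94 (SE 0.35, adjusted p = 0.292). Rps6, the target of S6 kinase, had 60, 44 and 25 reads in WT and 52, 58 and 74 in KO libraries and a log2 fold change of 0.70 (SE 0.44). The kidney RNA counts of Rps29, Rps23 and Rps6 were thus low in both genotypes, and the copies of these genes in the genome are described above. The remaining values were Rps2 0.28 (SE 0.21) and Fau 0.58 (SE 0.26). By region, the median was 0.83 for 12 head, 0.50 for 5 platform and 0.64 for 10 body proteins, and none of the genes in any region passed the threshold.

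The level of these mRNAs moved together from library to library. The median small subunit gene, relative to the median of all genes and centred over the 6 kidney RNA-seq libraries, stood at -0.25, 0.03 and -0.58 (log2) in WT libraries 1 to 3 and at -0.10, 0.60 and 0.34 in KO libraries 1 to 3. KO library 1 thus lay among the WT libraries, and WT library 3 lay lowest. The share of reads from the mitochondrial rRNA genes was 0.686, 0.962 and 0.436% in the WT libraries and 0.754, 1.76 and 1.67% in the KO libraries, and it put the 6 libraries in the same order as the small subunit genes did. The orders differed in kidney Ribo-seq. There WT library 2 had the highest share (0.538%) and the lowest small subunit level (-0.29), and KO library 3 had the lowest share (0.185%) and a level of 0.17. The part of the mitochondrial rRNA share in the RNA difference was not tested. Without KO library 1, 15 genes passed the threshold upward, where 8.46% of all coding genes then did. With limma voom and quality weights, which gave KO library 1 the lowest weight, 22 did, where 25.4% of all genes were called upward. The kidney RNA count therefore depended on KO library 1 and on how libraries were weighted.

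**Figure D2:**
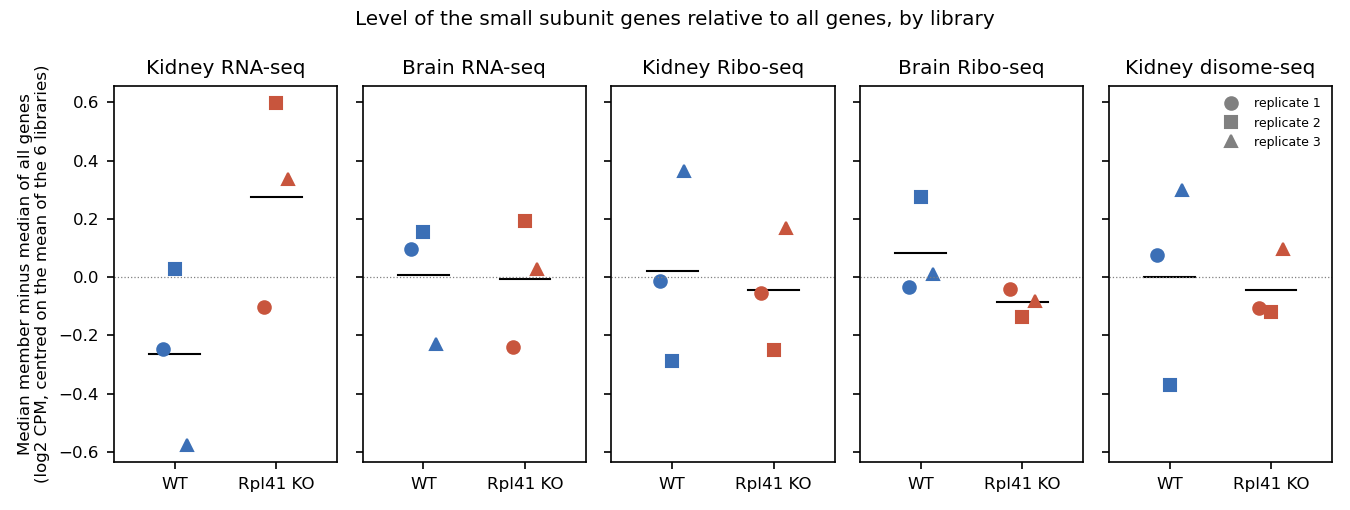
Median level of the small subunit genes minus the median of all genes (log2 CPM, centred on the mean of the 6 libraries), 1 point per library, for each organ and assay in WT and Rpl41 KO. In kidney RNA-seq, KO libraries 2 and 3 stand highest (0.60 and 0.34) and KO library 1 lies among the WT libraries.

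In brain, mRNA levels lay close together in the genotypes. All 28 genes were tested, none passed the threshold (0% of 15731 coding genes passed upward and 0.00636% downward), and none reached an unadjusted p under 0.05, where 3.58% of all genes were higher and 1.42% lower. The values of 27 genes were positive (68.9% of all genes), and in no gene were the genotypes separate in either direction (10.2% higher and 3.26% lower over all genes). The log2 fold changes lay between -0.03 and 0.23, with a median of 0.08 against 0.10 for all genes. Rps23 had 102, 95.0 and 73.4 CPM in WT libraries 1 to 3 and 76.9, 116 and 107 CPM in KO libraries 1 to 3. KO library 1 was among the low values and KO library 2 the highest, so the genotypes overlapped, and the log2 fold change was 0.23 (SE 0.24, adjusted p = 0.898). The next values upward were 0.22 (SE 0.18) for Rpsa and 0.20 (SE 0.21) for Rps18, a head protein next to the P-site tRNA. The lowest were -0.03 (SE 0.15) for Rps3a1, a platform protein near the mRNA exit, 0.03 (SE 0.19) for Rps27 and 0.03 (SE 0.20) for Rps24, a body protein mutated in some Diamond-Blackfan anaemia families. All 28 95% intervals stayed within a change of 1 on the log2 scale, from -0.47 to 0.77. In this organ the median small subunit gene was low in WT library 3 and KO library 1 (0.10, 0.15 and -0.23 in WT and -0.24, 0.19 and 0.03 in KO), and these were also the libraries with the lowest mitochondrial rRNA shares (0.689, 0.488 and 0.381% and 0.380, 0.618 and 0.611%).

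Ribosome footprints in the kidney gave no call either, with tighter intervals than RNA. Of 28 genes, 7 had a positive and 21 a negative log2 fold change (background 47.5% and 52.5%), the median was -0.09 against -0.02 for all genes, and none passed the threshold, while 5.96% of 13453 coding genes rose and 3.92% fell. None reached an unadjusted p under 0.05 (background 15.2% higher and 13.8% lower), and in none were the genotypes separate (background 17% and 16%). Rps21 had 38.6, 30.1 and 47.7 CPM in WT libraries 1 to 3 and 30.9, 25.2 and 34.6 CPM in KO libraries 1 to 3. WT library 3 was highest and KO library 2 lowest, the other 4 overlapped, and the log2 fold change was -0.29 (SE 0.17, adjusted p = 0.302). Rps27 and Rps23 followed with -0.27 (SE 0.18) and -0.25 (SE 0.20). The highest values were 0.14 (SE 0.19) for Rps18, 0.09 (SE 0.14) for Rps10 and 0.09 (SE 0.17) for Rps4x, the X-linked body protein. Every interval lay within a change of 1 on the log2 scale, from -0.76 to 0.64.

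Several genes are named for what they do on stalled or regulated ribosomes. Of those that carry ubiquitin on stalled ribosomes, Rps2 had a kidney footprint log2 fold change of -0.15 (SE 0.28), Rps3 of -0.06 (SE 0.14), Rps10 of 0.09 (SE 0.14) and Rps20 of -0.20 (SE 0.19). In brain footprints the same genes had -0.36 (SE 0.20), -0.01 (SE 0.10), -0.16 (SE 0.11) and -0.10 (SE 0.13) in that order. Rps6 had 0.07 (SE 0.15) in kidney and -0.01 (SE 0.11) in brain, and Rps15 -0.00485 (SE 0.13) and -0.19 (SE 0.11). The ubiquitin fusion Rps27a had 0.01 (SE 0.18) and -0.05 (SE 0.11), and the ubiquitin-like fusion Fau -0.18 (SE 0.14) and -0.23 (SE 0.12). Rps25 had -0.12 (SE 0.16) and -0.20 (SE 0.12). None of these genes passed the threshold in either organ.

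In brain footprints, 26 of 28 log2 fold changes were negative, with a range of -0.36 to 0.05 and a median of -0.20, against -0.03 for all genes and 54.4% of genes below 0. No gene passed the threshold, and 0.0346% of 14462 coding genes fell. At an unadjusted p under 0.05, 3 genes were lower (Rps16, Rps21 and Rps23, against 7.12% of all genes) and 0 were higher (7.4%). In 6 genes (Rps2, Rps9, Rps15, Rps19, Rps23 and Rps27) all KO libraries lay below all WT libraries, where 9.74% of all genes did, and in 0 did all lie above (9.88%). Rps2 had 2.60, 3.05 and 2.10 CPM in WT libraries 1 to 3 and 1.91, 1.87 and 2.02 CPM in KO libraries 1 to 3, all WT libraries above all KO libraries, with a log2 fold change of -0.36 (SE 0.20, adjusted p = 0.482). Rps21 had 36.5, 46.8 and 36.5 CPM in WT libraries 1 to 3 and 35.8, 29.7 and 30.3 CPM in KO libraries 1 to 3. WT library 2 stood above the rest, KO library 1 lay near WT libraries 1 and 3, and the log2 fold change was -0.30 (SE 0.13, adjusted p = 0.382). Rps16, a head protein that touches the P-site tRNA, had -0.29 (SE 0.12, adjusted p = 0.365). The highest values were 0.05 (SE 0.10) for Rpsa, 0.01 (SE 0.12) for Rps4x and -0.01 (SE 0.11) for Rps6.

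The brain footprint values depended on single libraries. The median small subunit gene stood at -0.03, 0.27 and 0.01 in the WT and -0.04, -0.14 and -0.08 in the KO libraries (log2, relative to all genes). With WT library 2, KO library 2 or KO library 3 left out, 0 genes reached an unadjusted p under 0.05, and with WT library 1 left out 9 did, all lower in KO. The share of all genes at this cut was not taken with a library left out, so these counts cannot be read as particular to these genes. WT library 1 is the one with the high pancreas marker level. The summed level of 10 blood and immune markers was 704, 1842 and 753 CPM in the WT and 434, 500.0 and 401 CPM in the KO brain Ribo-seq libraries. WT library 2 was thus highest in both, and the summed WT and KO marker levels did not overlap. Most of this sum came from haemoglobin genes, such as Hba-a1 (mean 240 CPM in WT and 80.8 in KO) and Hbb-bs (287 and 112). The immune markers differed little, with Csf1r at 43.4 and 48.5, Cd74 at 6.43 and 6.49, Ptprc at 2.01 and 1.89 and Lyz2 at 5.02 and 4.35 CPM. The part of either marker list in the footprint values was not tested.

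**Figure D3:**
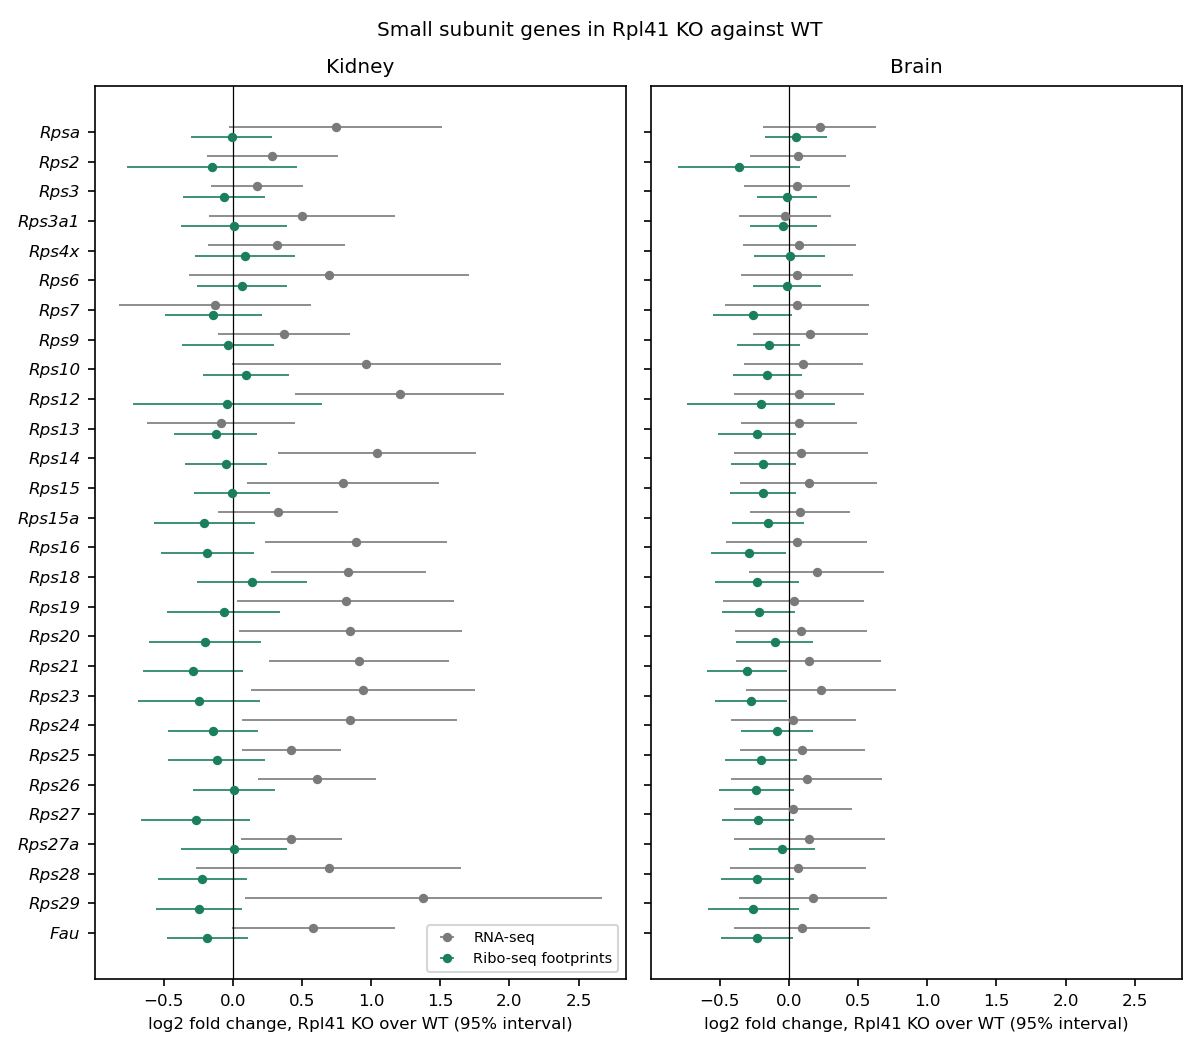
log2 fold change (KO over WT) with its 95% interval for each small subunit gene in kidney (left) and brain (right), for RNA-seq and for Ribo-seq footprints. Kidney RNA values lie mostly above 0 (median 0.70) with wide intervals, while brain RNA (median 0.08) and both sets of footprints (medians -0.09 and -0.20) lie closer to 0. Rps27 has no kidney RNA value.

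Translation efficiency (TE), the footprint change relative to the RNA change, was tested as the assay by genotype term of a joint model. In kidney all 28 genes had negative values, from -1.60 to -0.05 with a median of -0.71, against -0.13 for all genes and 59.3% of genes below 0 and 40.7% above it. No gene passed the threshold (0% of 15477 coding genes did in either direction), and 10 of 28 reached an unadjusted p under 0.05 all lower, against 11.6% of all genes lower and 6.04% higher. The lowest values were those of Rps29 at -1.60 (SE 0.49, adjusted p = 0.143), Rps12 at -1.32 (SE 0.54, adjusted p = 0.223) and Rps23 at -1.19 (SE 0.41, adjusted p = 0.166). Nearest to 0 were Rps7 at -0.05 (SE 0.38), Rps13 at -0.06 (SE 0.28) and Rps27 at -0.19 (SE 0.62). Rps27, too low in kidney RNA to be tested there, is among the 28 only through its footprints, and its value carries little weight. All these TE values use the kidney RNA libraries described above, and in 18 of 27 genes the RNA value was positive and the footprint value negative. Without KO RNA-seq library 1, 8 genes passed the threshold, all lower, where 6.73% of all coding genes then did. DESeq2 called 1 (Rps29), against 3.24% of all genes downward, and limma voom with quality weights 13, against 15.5%.

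TE values in brain were smaller. Of 28 genes 27 were negative, where 61.3% of all genes were negative and 38.7% positive. The median was -0.25 against -0.09 for all genes, none passed the threshold and none reached an unadjusted p under 0.05 (3.52% of 16721 coding genes did downward and 1.78% upward). Rps23 had -0.47 (SE 0.28, adjusted p = 0.895), Rps21 -0.40 (SE 0.28) and Rps18 -0.39 (SE 0.27). The highest were Rps3a1 at 0.02 (SE 0.19), Rps4x at -0.03 (SE 0.22) and Rps6 at -0.03 (SE 0.22).

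A tissue by genotype term, kidney minus brain, tested whether the KO effect itself differed between organs. For RNA the median difference over 28 genes was 0.53 (log2) against -0.04 for all genes, and no gene passed the threshold, as 0% of 16426 coding genes did. At an unadjusted p under 0.05, 1 gene (Rps12) was higher and 0 lower, against 2.68% and 5.19% of all genes. Rps29 had 1.14 (SE 0.55, adjusted p = 0.585), Rps12 1.09 (SE 0.42, adjusted p = 0.585) and Rps14 0.91 (SE 0.42, adjusted p = 0.585). The lowest were Rps7 at -0.22 (SE 0.42), Rps13 at -0.20 (SE 0.32) and Rps27 at -0.18 (SE 0.58). Rps27 entered this fit through its brain counts, since its kidney RNA counts were too low for a test in kidney. For footprints the median difference was 0.07, no gene passed (0.0384% and 0.102% of 15610 coding genes did upward and downward), 0 reached an unadjusted p under 0.05 (4.77% higher and 4.67% lower over all genes), and the extremes were Rps18 at 0.36 (SE 0.26), Rps10 at 0.24 (SE 0.19) and Rps26 at 0.23 (SE 0.19), and Rps20 at -0.11 (SE 0.25), Rpsa at -0.07 (SE 0.18) and Rps24 at -0.07 (SE 0.21). Without kidney RNA-seq library 1 of the KO group, Rps12 passed the threshold for RNA (0.976% of all genes then did upward), and with limma voom and quality weights 8 genes did (4.32%).

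Disome reads, which mark places where a ribosome ran into the one ahead, were counted in the kidney. Of 27 genes tested, 12 had positive and 15 negative log2 fold changes (49.8% and 50.2% over all genes), with a median of -0.02. None passed the threshold (0.0901% and 0.0644% of 7770 coding genes did upward and downward), and 2 reached an unadjusted p under 0.05, both lower (Rps21 and Rps19), against 5.14% of all genes lower and 6.04% higher. Rps21 (chr2:180257377-180258445, plus strand) had 38.5, 31.1 and 45.6 CPM in WT libraries 1 to 3 and 26.7, 20.5 and 21.1 CPM in KO libraries 1 to 3. All KO libraries lay below all WT libraries, as in 8.4% of all genes, and its log2 fold change was -0.65 (SE 0.21, adjusted p = 0.225). Rps19, a head protein and the gene most often mutated in Diamond-Blackfan anaemia, had -0.50 (SE 0.24, adjusted p = 0.456), and Rps12 had -0.44 (SE 0.39). The highest values were Rpsa at 0.39 (SE 0.23), Rps25 at 0.30 (SE 0.18) and Rps3a1 at 0.11 (SE 0.21). Rps2 had 19, 21 and 4 disome reads in WT and 9, 7 and 4 in KO libraries and was left out for low counts.

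Relative to footprints, tested as for TE, disomes gave 18 positive and 10 negative values among 28 genes (48.4% and 51.6% over all genes), with a median of 0.03. No gene passed the threshold, as 0% of 12240 coding genes did, the smallest adjusted p was 0.864, and 0 had an unadjusted p under 0.05 (2.88% higher and 3.03% lower over all genes). Rps25 had 0.46 (SE 0.25), Rpsa 0.43 (SE 0.27) and Rps15a, a body protein, 0.27 (SE 0.29). At the low end were Rps2 at -0.45 (SE 0.55), Rps19 at -0.40 (SE 0.33) and Rps12 at -0.37 (SE 0.57). Rps2, left out of the disome test for low counts, entered this fit through its footprints, and its value carries little weight.

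The genes differed widely in disome reads per footprint. The log2 ratio of disome CPM to the mean footprint CPM of the genotype was taken for the 25 genes with at least 10 reads in every kidney Ribo-seq and disome-seq library, which leaves out Rps2, Rps12 and Rps28. Rps27a (chr11:29545846-29548109, minus strand) was highest, with 1.84, 1.42 and 2.02 in WT libraries 1 to 3 and, in the same order, 1.42, 1.33 and 2.29 in the KO libraries. That placed it in the range of percentiles 90.2 to 97.7 of 4545 genes in every library. Rps6 had 0.93, 0.85 and 1.15 in WT and 1.09, 0.68 and 1.10 in KO, and Rps25 0.68, 0.54 and 1.04 and 1.17, 1.26 and 1.10. Lowest by the median of each genotype was Rps14, with -0.44, -1.29 and -0.77 in WT and -0.39, -0.84 and -0.79 in KO, and Rps3, with -0.61, -0.85 and -0.46 and -0.43, -0.55 and -0.82, was lower than Rps14 in 3 of the 6 libraries. No library of Rps27a, Rps6 or Rps25 overlapped with any of Rps14 or Rps3, in either genotype. These genes are shown because they stand near the ends of this order, so their separation follows from the choice and is no test.

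The order of the 25 genes by this ratio was similar in WT and KO, with a Spearman correlation of 0.92 between the medians of the genotypes. The median of 18 genes in WT and 19 in KO lay above the median of all genes. Footprints and disomes come from fragments of different length, and shared stretches of sequence bear on them differently, so a high ratio is not a count of collisions. The ubiquitin part of Rps27a is also encoded in other ubiquitin genes, and all of its 100-base coding stretches recur elsewhere.

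**Figure D4:**
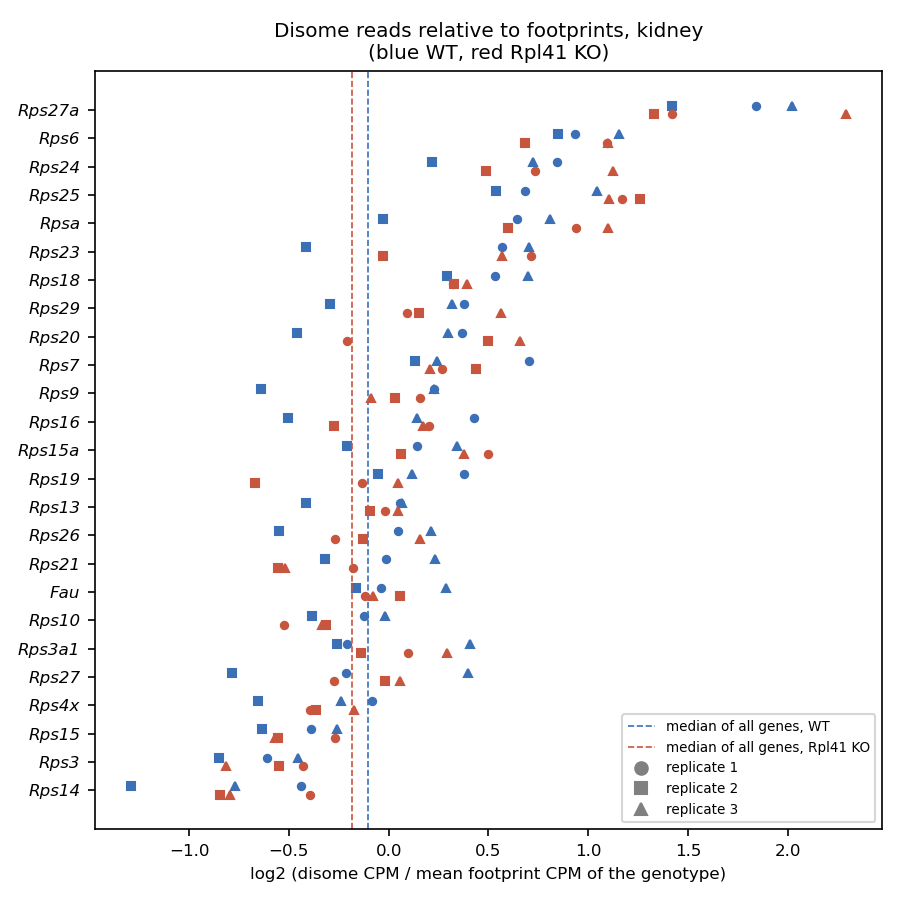
log2 of disome CPM over the mean footprint CPM of the genotype for 25 small subunit genes in kidney, 1 symbol per library (blue WT, red Rpl41 KO), with dashed lines at the medians of all genes. Rps27a stands at the right in all 6 libraries (1.33 to 2.29) and Rps14 and Rps3 at the left.

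Levels in the organs were compared in WT animals. Footprints on 7 of 28 genes were higher in kidney and on 0 lower, where 38.3% and 38.5% of 15610 coding genes were. The median log2 difference, kidney minus brain, was 0.24. Rps26, which contacts the mRNA at the exit, had 28.1, 23.1 and 31.7 CPM in kidney and 17.5, 21.5 and 17.8 CPM in brain libraries, with no overlap and a log2 difference of 0.65 (SE 0.14, adjusted p = 3.65e-04). Rps3 had 67.6, 56.3 and 76.9 CPM in kidney and 45.4, 48.0 and 45.8 CPM in brain, again without overlap, with 0.62 (SE 0.13, adjusted p = 2.09e-04). The others were Rps19 at 0.55 (SE 0.18), Rps23 at 0.45 (SE 0.19), Rps14 at 0.42 (SE 0.13), Rps10 at 0.39 (SE 0.14) and Rps15 at 0.37 (SE 0.12). Leaving out WT kidney library 3 kept 3 of these calls, and leaving out WT kidney library 2 gave 14, all higher in kidney.

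RNA levels differed between the organs over a much wider range. Of 28 genes 3 were higher and 15 lower in WT kidney than in WT brain (37.6% and 35.3% of 16426 coding genes). Higher were Rps2 with 1.28 (SE 0.21, adjusted p = 1.24e-04), Rps3 with 0.78 (SE 0.18, adjusted p = 0.00214) and Rps9, a body protein near the mRNA entry, with 0.76 (SE 0.22, adjusted p = 0.00919). Rps27 (chr3:90212671-90213651, minus strand) had 0.206, 0.312 and 0.0889 CPM in kidney RNA-seq but 97.5, 108 and 82.7 CPM in brain RNA-seq, a log2 difference of -8.64 (SE 0.40). Rps27 was too low in kidney RNA for the KO against WT test and entered this fit through its brain counts. Its place among the 15 lower genes therefore followed from the filter and is no support for a difference. In Ribo-seq of the same organs it had 18.1, 15.0 and 23.4 CPM and 15.0, 17.8 and 15.9 CPM, with 0.31 (SE 0.17, adjusted p = 0.113). Rps29 had 0.289, 0.468 and 0.511 CPM in kidney and 158, 167 and 112 CPM in brain RNA-seq, with -8.23 (SE 0.46, adjusted p = 3.48e-09). Rps6, Rps23 and Rps12 followed with -6.64 (SE 0.34), -6.15 (SE 0.33) and -3.13 (SE 0.32). Kidney mRNA counts of Rps27, Rps29, Rps6 and Rps23 were thus low in an organ with footprints on all of them.

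Leaving out Rps27, which entered through its brain counts, the largest RNA differences were those of Rps29, Rps6 and Rps23. The 100-base coding stretches of these genes all recur elsewhere. The number of such places did not follow the differences in the same way: a 100-base stretch of Rps29 recurred at 1 other place, and one of Rps2, which was higher in kidney, at up to 19. The 9 genes whose 100-base coding stretches all recur elsewhere had RNA differences from -8.64 to -1.33 with a median of -2.90. The lowest value, -8.64, is that of Rps27, which is counted here but is no support. The other 19 genes ran from -3.13 to 1.28 with a median of -0.07. For footprints the same groups had -0.01 to 0.45 and -0.11 to 0.65. These groups rest on 100-base stretches, which are longer than a footprint. At 28 bases the other 19 genes had from 22.2% (Rps3) to 100% (Rpsa) of their stretches elsewhere. The footprint values therefore do not set genes with copies against genes without. The Spearman correlation between the share of recurring stretches and the RNA difference was -0.83 over 28 genes, Rps27 included, a description of genes that share libraries. Pseudogene transcripts held 0.0963 to 0.135% of the counts in kidney RNA-seq, against 3.71 to 5.07% in brain RNA-seq, 4.27 to 5.97% in Ribo-seq and 3.69 to 4.14% in disome-seq. Kidney RNA-seq thus stood apart from every other group of libraries in its share of pseudogene counts. Reads that match more than 1 place were not measured themselves, and tissue and counting cannot be told apart in these RNA levels. Among the 19 genes with some 100-base stretch found nowhere else, 3 were higher and 6 lower in kidney.

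**Figure D5:**
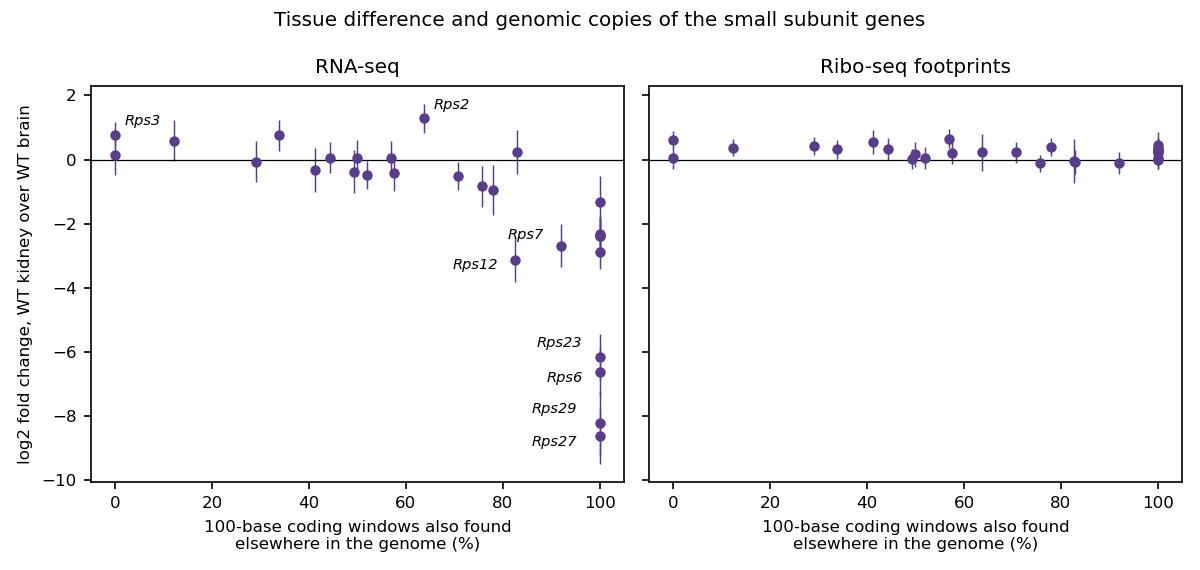
log2 difference between WT kidney and WT brain (95% interval) against the percentage of 100-base coding stretches that recur elsewhere in the genome, 1 point per small subunit gene, for RNA and for footprints. RNA differences reach -8.64 where all stretches recur, the value of Rps27, which entered the fit through its brain counts. Footprint differences stay between -0.11 and 0.65 at every percentage, and footprints are shorter than these stretches.

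The comparison of TE between the organs carries the same difference in RNA. In WT animals 12 genes had a higher and 1 a lower TE in kidney (10.1% and 15.8% of 17175 coding genes). The largest were Rps27 at 8.85 (SE 0.43), Rps29 at 8.39 (SE 0.45), Rps6 at 6.80 (SE 0.36), Rps23 at 6.51 (SE 0.39) and Rps12 at 3.00 (SE 0.50), and Rps2 was lower at -1.16 (SE 0.37, adjusted p = 0.0297). Rps27 was too low in kidney RNA to be tested there and entered this fit through the other groups. Counting only the genes with some 100-base stretch found nowhere else left 3 higher and 1 lower. These genes are not free of copies. Rps12 and Rps2, both among these calls, had 82.6% and 63.7% of their 100-base stretches elsewhere. Within brain, the log2 ratio of footprint to RNA CPM was below the median of all genes for all 28 genes in each of the 6 libraries. The median small subunit gene ranged over -1.96 to -1.70 among WT and -2.15 to -1.99 among KO libraries, against -0.18 to -0.09 for all genes. In WT brain Fau was highest at -0.89 (-0.93 to -0.71), Rps13 had -0.91 (-0.92 to -0.54), Rps2 -4.07 (-4.39 to -3.84) and Rps12 -4.55 (-5.01 to -4.01). In kidney 17 to 20 of 27 genes lay below the all-gene median, and Rps3, with no recurring 100-base stretch, had -1.10 (-1.37 to -0.92) in WT kidney and -1.11 (-1.12 to -1.04) in WT brain. Rps21, the other such gene, had -1.42 (-1.78 to -1.11) and -1.57 (-1.57 to -1.21). At 28 bases, about the length of a footprint, 22.2% of the stretches of Rps3 and 79.7% of those of Rps21 do recur elsewhere. The footprint part of these ratios is thus not free of copies.

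Other genes of the pathway are given for comparison by counts alone. Of 46 large subunit genes, none passed the threshold in kidney RNA (median 0.50), brain RNA (0.12), brain footprints (-0.15) or disomes (-0.10), and 1 was lower in kidney footprints (-0.08), where 3.92% of all coding genes were. Each of these medians had the sign of its counterpart among the small subunit genes, which was also the sign of most coding genes. Of all coding genes, 61.6% were above 0 in kidney RNA and 68.9% in brain RNA. Below 0 were 52.5% in kidney footprints, 54.4% in brain footprints and 50.2% in disomes. The shared sign is thus not particular to these lists. In WT footprints 18 large subunit genes were higher and 1 lower in kidney than in brain, of 46 tested, where 38.3% and 38.5% of all coding genes were. Of 23 assembly factors of the small subunit tested, 8 rose in KO kidney footprints, where 5.96% of all coding genes did, with a list median of 0.27, and none passed in kidney RNA, brain RNA or brain footprints (medians 0.31, 0.07 and 0.12). In disomes 1 of 18 rose (0.0901% of all coding genes).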

How the data were processed

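Counts came from RNA-seq of poly(A) RNA, Ribo-seq and disome-seq of mouse kidney and brain (30 libraries). The authors digested lysates with RNase I, recovered ribosomes through a sucrose cushion, depleted rRNA, trimmed reads with cutadapt, aligned them with STAR to GRCm38 (mm10), with multimapping reads allowed according to the methods, and counted them with featureCounts of Subread. Kidney RNA-seq held far fewer pseudogene counts than all other libraries, so whether its multimapping reads were counted in the same way is not known, and its levels of genes with recurring sequence cannot be set against those of other libraries. They deposited whole-number read counts for each of 142604 transcripts, without normalization. Of these, 141374 matched GENCODE M21 by identifier. A read that fits several isoforms is repeated in each, so counts per transcript exceed molecules. A further table, of human transcripts with 28 columns named as mouse samples, could not be assigned to samples and was not used, so the 44 HEK293T samples were not analysed here.

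KO and WT were compared with edgeR's quasi-likelihood test (filterByExpr, TMM, Benjamini-Hochberg over all transcripts tested, threshold 0.05), without covariates. TE and disomes relative to footprints are assay by genotype terms, and standard errors come from the fold change and F. The study used RiboDiff for TE, for which the edgeR term stands in. Labels number the replicates without naming animals, so p-values measure the spread between these samples. Deviations of libraries of the same number correlated in every pair for WT and KO disomes (Pearson r 0.121, 0.208 and 0.120), for kidney footprints and disomes and for kidney footprints and RNA of each genotype, for footprints and RNA of WT brain and for kidney and brain RNA of KO, and not for WT and KO RNA or footprints.

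The genes and lists were chosen with earlier results of these data known. Named genes are those past the threshold (up to 10, otherwise the 5 largest rises and falls), or else the 3 highest and 3 lowest, and Rps27a, Fau, Rps27, Rps3, Rps20, Rps10, Rps2, Rps6, Rps23, Rps15 and Rps25 for their roles. Sequences were read from GRCm38. Alternatives were DESeq2, library totals, other filters, counts summed per gene, 1 transcript per gene, limma voom with quality weights, a replicate block and each library left out. R 4.3.3, edgeR 4.0.16, limma 3.58.1, DESeq2 1.42.0, data.table (version 1.17.8), Python 3.11.15, matplotlib 3.10.9, scipy 1.17.1, pandas 2.3.3 and numpy 2.4.6 were used. Scripts were tested on simulated counts.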

Additional observations from a re-analysis of the deposited data

Results flagged for a closer look

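The test of TE between WT kidney and WT brain called 13 of the 28 small subunit genes. Of these, 12 were higher and 1 lower in kidney, where 10.1% and 15.8% of 17175 coding genes were. The values ran from -1.16 (Rps2) to 8.85 (Rps27) on the log2 scale. Rps27 was too low in kidney RNA to be tested there and entered this fit through the other groups. Of the 13 called genes, 4 have some 100-base coding stretch that occurs nowhere else in the genome. Kidney RNA-seq held 0.0963 to 0.135% pseudogene counts and brain RNA-seq 3.71 to 5.07%, and the part of this in the difference was not tested. Kidney RNA levels of genes with recurring sequence cannot be set against those of brain, so their TE differences are not read here as differences in translation.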

How the results depend on the processing

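In KO against WT the count of small subunit genes past the threshold stayed at 0 under every alternative run for brain RNA, brain and kidney footprints, brain TE, disomes and disomes relative to footprints. For kidney RNA it was 22 with limma voom and quality weights and 0 to 15 with 1 library left out, 15 of them without KO library 1. Without KO libraries 2 and 3, chosen after seeing the data, the distance of these genes from all genes was 0.11, but these libraries have the highest small subunit levels and 1 KO library is then left, so the lower value follows from the choice. For kidney TE the count was 1 with DESeq2, 13 with limma voom and 0 to 8 with 1 library left out. For the RNA difference between organs in the KO effect it was 8 with limma voom and 0 to 1 with 1 library left out (Rps12, without kidney RNA-seq library 1 of the KO group).

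Between WT kidney and brain, footprint calls numbered 11 without a count filter, 4 with at least 10 counts in every library, 4 with counts summed per gene and 3 to 14 with 1 library left out, in place of 7. Over the genes with some 100-base coding stretch found nowhere else, a choice made after seeing the data, RNA calls numbered 9 and TE calls 4. RNA calls ranged from 14 to 18 with 1 library left out and from 17 to 22 under the other settings, and TE calls from 13 to 19. Leaving out libraries was not run for TE between organs, since with all tests it would have exceeded the limit of 100 regroupings. The cause of these changes was not tested.

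With the replicate number as a block, no KO against WT count of calls moved from 0. Kidney TE had 6 genes with an unadjusted p under 0.05 in place of 10, all lower, and brain footprints 0 in place of 3. Kidney RNA had 18 in place of 14, and the RNA difference between organs in the KO effect 18 in place of 1. The share of all genes at an unadjusted p was not taken with the block, so these counts cannot be read as particular to these genes. Between WT organs, footprint calls numbered 10 in place of 7 and RNA calls 22 in place of 18. With the block, 37.9% of all coding genes were higher and 35.7% lower in kidney RNA. Of 1373 values of single genes recomputed, 103 changed sign, none of them past the threshold. With 3 libraries per group, the typical 95% interval reached 0.67 (log2) to either side in kidney RNA, 0.47 in brain RNA, 0.34 in kidney and 0.26 in brain footprints, and 0.44 in disomes.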

Other observations

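The level of the small subunit genes moved with library number in kidney footprints and disomes alike. Relative to all genes it stood at -0.01, -0.29 and 0.37 (log2) in WT Ribo-seq libraries 1 to 3 and at 0.08, -0.37 and 0.30 in WT disome-seq libraries 1 to 3. In KO it stood at -0.06, -0.25 and 0.17 in Ribo-seq and at -0.11, -0.12 and 0.10 in disome-seq. Library 3 was highest in all 4 groups and library 2 lowest. Over all genes, deviations of WT libraries of the same number correlated at 0.178, 0.388 and 0.396 (Pearson r) between the assays, and those of KO libraries at 0.287, 0.283 and 0.145.

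Reads of these genes are repeated over isoforms. The Rps24 transcript used here held 9.65% to 9.77% of the reads summed over the 12 Rps24 transcripts in WT kidney Ribo-seq, and that of Rps15 50.0% to 50.1% of 2. Rps3a1 had 1 transcript in the table.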
